A study of Mus musculus with 21 samples.

Results

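Glycolysis and the response to low oxygen were followed through 32 genes, chosen by name: the enzymes of the glycolytic chain, the glucose and lactate transporters, the subunits and oxygen sensors of the hypoxia-inducible factor (HIF), and genes that HIF is known to switch on. Of the 32, 30 had a probe set that the platform annotation ties to a single gene symbol, out of 18193 genes with such a probe set, and each gene was read from its brightest such probe set (by the mean of the 21 arrays). Gpi1 (the isomerase of upper glycolysis) and Eno1 (the ubiquitous enolase) were not analysed here. Expression was measured on 21 whole-genome arrays of mouse cells, 3 labelled as biological replicates in each of 7 groups, without saying whether they came from separate cultures or animals. Haploid cells of paternal origin came from the androgenetic lines AH129-5, AH129-N1 and AH129-NC1 (ahES cells, 129 Sv), which were sorted by FACS in G0/G1 after culture in N2B27 with 2i and LIF. The diploid ES lines CS1-1 and R1 (also 129 Sv) grew in the same medium, with no sort named. Mouse embryonic fibroblasts (MEF, CD1) grew in DMEM with serum, and round sperm (129 Sv) were taken fresh from testis and sorted as haploid G0/G1 cells. Haploidy, androgenetic origin and the sort came together in the ahES lines and cannot be told apart.

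Glycolysis breaks glucose down to pyruvate. Cells then either send pyruvate into mitochondria or turn it into lactate. HIF is a pair of proteins, an oxygen-sensitive alpha subunit (from Hif1a or Epas1) and a stable partner. When oxygen is ample, the prolyl hydroxylases Egln1 and Egln3 mark the alpha subunit for destruction. When oxygen is short, HIF builds up and switches on glucose transporters, glycolytic enzymes, Pdk1, Vegfa, Bnip3 and its own hydroxylase Egln3. Mouse pluripotent stem cells are known for active glycolysis, and spermatogenic cells for replacing several glycolytic enzymes with isoforms made only in the testis.

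All values are log2(signal + 9.70), where signal is the array brightness scaled by the authors' MAS5 processing. A gene passed a comparison at an adjusted p under 0.05 together with a change of at least 2-fold. A group mean at or below the 40th percentile of its arrays, which lay at 5.34 to 5.63, was taken as near background. Such a gene is given as "at least" a fold. The number of arrays, 3 per group, limits the precision. Only the comparison of ahES with diploid ES cells allowed for the spread between lines. In all other comparisons, those with MEF and round sperm included, standard errors (SE) and p-values measure the spread between arrays of the same group. They leave out the spread between ES lines, so that they overstate the evidence on kinds of cell.

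Among the HIF alpha subunits and their hydroxylases, Epas1 separated the ahES lines from the diploid ES lines, while Hif1a hardly varied among the 5 ES lines. Epas1 encodes the alpha subunit first described in endothelial cells. It read 7.32, 7.62 and 7.72 in AH129-5, 8.51, 8.60 and 8.48 in AH129-N1, and 9.44, 9.45 and 9.56 in AH129-NC1. In the diploid lines it read 11.34, 11.28 and 11.28 in CS1-1 and 11.08, 11.09 and 10.99 in R1. Every ahES array lay below every diploid ES array, and the 3 ahES lines stood apart from each other. Epas1 averaged 8.52 ± 0.84 in ahES cells (SD, n = 9) and 11.18 ± 0.14 in diploid ES cells (n = 6), a difference of -2.65 ± 0.33 (SE) or 6.30-fold lower (adjusted p = 1.42e-05). With each line reduced to 1 mean, the difference stayed at -2.65 but its adjusted p was 0.0616. A second, dimmer Epas1 probe set differed by -2.44 between the same groups. It was near background in AH129-5 and AH129-N1, so that its value rests partly on background levels. For CS1-1 minus R1 it gave -0.84, against 0.25 for the set used. In these bulk samples, fewer expressing cells and less RNA per cell cannot be told apart. MEF read 10.31, 10.38 and 10.56 for Epas1, between the ahES and the diploid ES arrays, and round sperm read 4.82, 4.88 and 4.86, near background.

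Hif1a encodes the widespread alpha subunit. It read 12.70, 12.50 and 12.57 in AH129-5, 12.39, 12.46 and 12.42 in AH129-N1, 12.59, 12.44 and 12.69 in AH129-NC1, 12.12, 12.27 and 12.23 in CS1-1, and 12.35, 12.38 and 12.42 in R1. The ahES and diploid ES ranges overlapped, with a difference of 0.23 ± 0.12 (adjusted p = 0.23). MEF were higher than all ES arrays at 13.53, 13.59 and 13.55, and round sperm far lower at 7.92, 7.61 and 7.41. Egln1, the main oxygen sensor of most tissues, did not pass between ahES and diploid ES cells (9.40 ± 0.43 and 9.63 ± 0.40).

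Egln3, the hydroxylase that HIF itself induces, varied from line to line within both kinds of ES cell. It read 8.48, 8.19 and 8.56 in AH129-5, 9.18, 9.03 and 9.52 in AH129-N1, and 7.34, 7.21 and 6.89 in AH129-NC1. The diploid lines bracketed most of these values, with 9.46, 9.49 and 9.87 in CS1-1 and 7.21, 7.67 and 6.68 in R1. CS1-1 was thus higher than R1 on every array, as AH129-N1 was higher than AH129-NC1, and the mean of all ahES arrays (8.27 ± 0.94) lay close to that of all diploid ES arrays (8.40 ± 1.37).

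**Figure D1:**
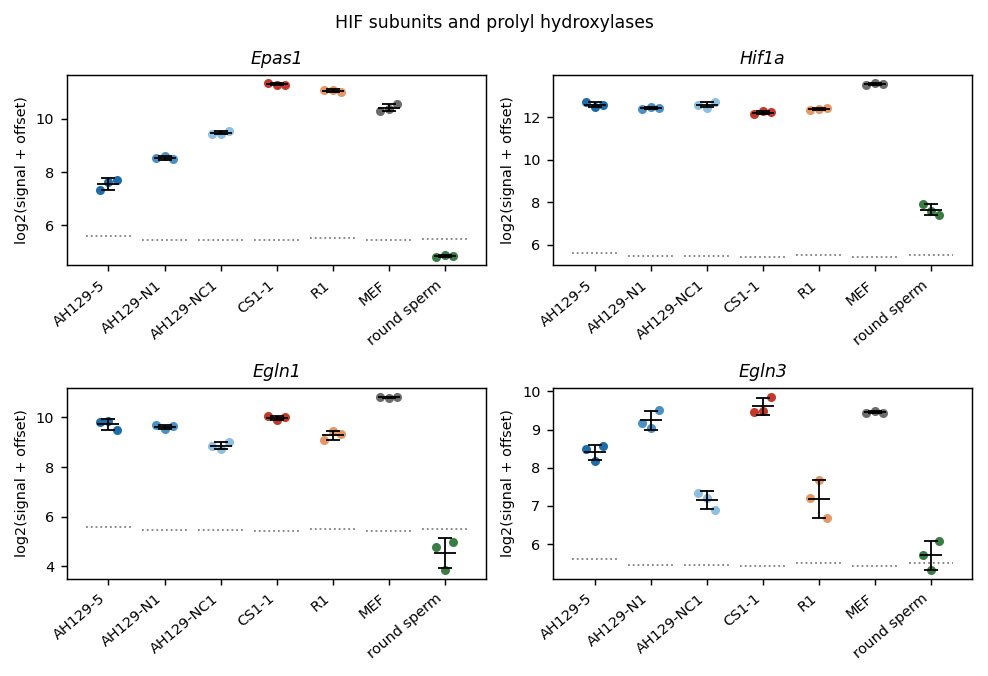
Level of Epas1, Hif1a, Egln1 and Egln3 as log2(signal + offset) in the 7 groups. Points are arrays, bars are the mean ± SD (n = 3 per group) and dotted lines are the mean 40th percentile of each group's arrays. Epas1 is at 7.32 to 9.56 in ahES arrays, below the diploid ES arrays at 10.99 to 11.34, while Hif1a stays between 12.12 and 12.70 in all ES arrays.

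Of the 6 hypoxia response genes outside the HIF system, Bnip3, Vegfa and Ndrg1 passed between the diploid lines and Ankrd37, P4ha1 and Car9 did not. Bnip3, which tags mitochondria for removal, read 12.32, 12.34 and 12.30 in AH129-5, 12.57, 12.53 and 12.79 in AH129-N1, and 11.26, 11.23 and 11.10 in AH129-NC1. It read 12.63, 12.65 and 12.62 in CS1-1 and 10.23, 10.32 and 10.29 in R1. R1 was the lowest line, CS1-1 and AH129-N1 were level, and the other ahES arrays lay between the diploid lines. Vegfa, the angiogenic growth factor, averaged 9.73, 9.41 and 8.83 in AH129-5, AH129-N1 and AH129-NC1, against 9.44 in CS1-1 and 8.33 in R1. Ndrg1, a stress-induced gene, averaged 10.20, 9.59 and 9.29 in the same ahES lines, against 11.10 in CS1-1 and 9.59 in R1. CS1-1 was the highest ES line for Ndrg1 and R1 the lowest for Vegfa.

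Ankrd37, an ankyrin repeat gene known as a HIF target, averaged 7.96 ± 0.39 in ahES cells and 8.61 ± 0.23 in diploid ES cells, and did not pass (adjusted p = 0.0957). P4ha1, a catalytic subunit of the collagen prolyl hydroxylase, averaged 9.73 ± 0.31 in ahES cells and 9.70 ± 0.22 in diploid ES cells. Car9, the carbonic anhydrase often used as a hypoxia marker, was near background in AH129-N1, AH129-NC1, R1, MEF and round sperm, and its highest array read 6.36. AH129-5 (6.05 ± 0.47) and CS1-1 (5.72 ± 0.31) were barely above background, so that the groups were not ordered for Car9.

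**Figure D2:**
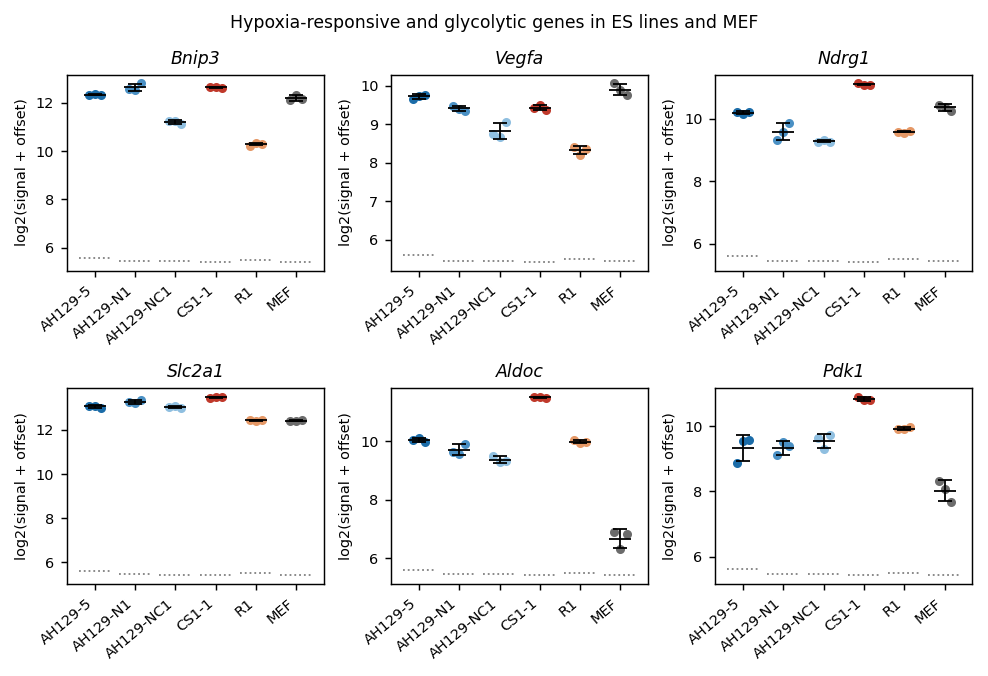
Level of Bnip3, Vegfa, Ndrg1, Slc2a1, Aldoc and Pdk1 as log2(signal + offset) in the ES lines and MEF. Points are arrays, bars the mean ± SD (n = 3 per group) and dotted lines the mean 40th percentile of each group's arrays. CS1-1 lies above R1 on every array for all 6 genes, for example at 12.62 to 12.65 against 10.23 to 10.32 for Bnip3. All but Pdk1 passed between these lines, so that separate arrays were to be foreseen. The share of such genes over all genes was not counted.

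Core promoter sequence is shown for 3 of the members that passed between the diploid lines, a mitochondrial, an oxygen-sensing and a transporter gene, because HIF is known to bind short elements with the core ACGTG or GCGTG. The 250 bases before the start of transcription are shown for Bnip3 (chr7:138909507-138909756, minus strand), Egln3 (chr12:54203875-54204124, minus strand) and Slc2a1 (chr4:119108495-119108744, plus strand), from RefSeq on GRCm38.p6. Capitals mark ACGTG and GCGTG on either strand, so that CACGT and CACGC are matches on the opposite strand.
Bnip3: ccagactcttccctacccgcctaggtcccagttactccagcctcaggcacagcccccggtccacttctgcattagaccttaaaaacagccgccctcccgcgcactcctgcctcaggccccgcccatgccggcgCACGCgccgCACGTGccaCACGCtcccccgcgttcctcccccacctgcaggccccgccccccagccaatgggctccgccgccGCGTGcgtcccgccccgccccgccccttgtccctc
Egln3: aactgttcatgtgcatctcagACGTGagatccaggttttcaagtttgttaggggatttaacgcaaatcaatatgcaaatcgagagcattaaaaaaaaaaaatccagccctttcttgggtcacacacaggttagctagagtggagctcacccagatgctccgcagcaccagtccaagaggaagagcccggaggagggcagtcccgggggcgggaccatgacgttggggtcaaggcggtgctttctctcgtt
Slc2a1: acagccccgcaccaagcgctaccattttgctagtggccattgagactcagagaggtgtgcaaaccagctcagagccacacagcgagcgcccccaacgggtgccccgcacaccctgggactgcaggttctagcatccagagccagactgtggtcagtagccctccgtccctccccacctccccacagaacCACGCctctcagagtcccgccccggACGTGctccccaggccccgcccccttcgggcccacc
Bnip3 held 5 matches, of which the 2 ACGTG matches are the same palindrome read on both strands. Slc2a1 held 2 matches and Egln3 held 1, located 229 bases before the start. Promoter entries were found for 27 members, 39 entries in all, and Epas1, Ndrg1 and Slc2a3 had none. A match was present in 31 of the 39 entries (79.5%), against 38.6% of 32851 mouse promoters of the same length, of which 16.6% held ACGTG and 28.2% held GCGTG. Member promoters were also richer in G and C (median 60.4%, against 52.4% over all promoters), which was not matched for. As the members include known HIF targets, a high share was to be foreseen. Overlapping entries of the same gene, as for Aldoa and Pfkm, count the same match more than once. These matches describe letters in a window and not binding.

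Of the transporters, Slc2a1 (the general glucose importer) followed the pattern of Bnip3. Slc2a3 (the high-affinity glucose importer) was level across ES lines in the probe set used. Slc2a1 read 13.10, 13.10 and 12.99 in AH129-5, 13.25, 13.21 and 13.36 in AH129-N1, and 13.05, 13.10 and 12.98 in AH129-NC1. It read 13.45, 13.49 and 13.49 in CS1-1 and 12.44, 12.41 and 12.47 in R1. All ahES arrays lay between the diploid lines. Slc2a3 averaged 14.76 ± 0.15 in ahES cells and 14.78 ± 0.10 in diploid ES cells. For CS1-1 minus R1 this probe set gave 0.17, while the other Slc2a3 probe sets gave 0.89, 0.65 and 0.25. Slc16a3, which exports lactate from highly glycolytic cells, was dim throughout, with group means of 5.92 to 7.34.

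In upper glycolysis, where glucose is phosphorylated and split, Aldoc (the brain aldolase) was the only enzyme that passed between ahES and diploid ES cells. It read 10.05, 10.12 and 9.97 in AH129-5, 9.64, 9.55 and 9.90 in AH129-N1, and 9.49, 9.29 and 9.33 in AH129-NC1. CS1-1 stood apart at 11.48, 11.51 and 11.46, while R1 at 10.04, 9.94 and 9.96 overlapped with AH129-5. The difference was -1.03 ± 0.28 (adjusted p = 0.0219) and shrank to -0.27 without CS1-1 (adjusted p = 0.562). Its single other probe set was near background everywhere.

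Hk1, the housekeeping hexokinase, was lower in all 9 ahES arrays (10.09 ± 0.26) than in any of the 6 diploid ES arrays (10.83 ± 0.15), but at -0.73 ± 0.14 it did not reach 2-fold (adjusted p = 0.00124). Hk2, the inducible hexokinase, read 12.82, 12.85 and 12.85 in AH129-5, 13.36, 13.31 and 13.42 in AH129-N1, and 12.91, 12.88 and 12.81 in AH129-NC1, against 13.51, 13.55 and 13.56 in CS1-1 and 12.92, 12.94 and 12.92 in R1. CS1-1 and AH129-N1 were the high lines, and the other 3 lay close together. The phosphofructokinases Pfkl, Pfkm and Pfkp, the aldolase Aldoa and the isomerase Tpi1 differed by -0.31 to -0.01 between ahES and diploid ES cells, and none of them passed. Pfkfb3 makes the sugar phosphate that activates phosphofructokinase. It averaged 8.15 ± 0.33 in ahES cells and 7.08 ± 0.60 in diploid ES cells, a difference of 1.06 ± 0.35 that missed the threshold (adjusted p = 0.0515). It passed with median-centred arrays (adjusted p = 0.0462), under quantile normalization (0.0409) and without CS1-1 (0.0087). The last of these rests on R1 as the only diploid line, with a difference of 1.58. Against CS1-1 alone the difference was 0.55, under 2-fold, and Pfkfb3 did not pass. The other Pfkfb3 probe set gave -0.09 between ahES and diploid ES cells, but it was near background in all ES lines.

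In lower glycolysis, Pgk1, Pgam1, Pkm and Ldha were bright in every ES line and none passed between ahES and diploid ES cells. Pgk1, which makes ATP and is the only X-linked member, read 14.79, 14.71 and 14.62 in AH129-5, 14.68, 14.63 and 14.88 in AH129-N1, and 14.39, 14.46 and 14.42 in AH129-NC1. In the diploid lines it read 14.46, 14.54 and 14.47 in CS1-1 and 14.00, 13.95 and 13.98 in R1. The ranges overlapped through AH129-NC1 and CS1-1, and the difference was 0.39 ± 0.13 (adjusted p = 0.0551).

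The lactate dehydrogenase subunits behaved differently from each other. Ldha, the muscle-type subunit, averaged 14.18 ± 0.19 in ahES cells and 14.04 ± 0.10 in diploid ES cells. Ldhb, the heart-type subunit, read 12.54, 12.56 and 12.42 in AH129-5, 12.21, 12.25 and 12.49 in AH129-N1, and 12.15, 12.34 and 12.16 in AH129-NC1, against 13.05, 13.07 and 13.07 in CS1-1 and 13.20, 13.10 and 13.24 in R1. Every ahES array was below every diploid ES array, at -0.77 ± 0.13 (adjusted p = 0.000211), short of 2-fold, and the 4 Ldhb probe sets gave -0.79 to -0.67.

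Pdk1, the kinase that closes the entry of pyruvate into mitochondria, read 8.87, 9.55 and 9.59 in AH129-5, 9.11, 9.51 and 9.38 in AH129-N1, and 9.63, 9.30 and 9.72 in AH129-NC1. CS1-1 read 10.91, 10.82 and 10.80 and R1 read 9.90, 9.90 and 9.97. The ahES arrays were again all below the diploid ES arrays, at -0.98 ± 0.29 or 1.97-fold (adjusted p = 0.0339), just short of 2-fold. It passed with probe sets averaged (-1.06, adjusted p = 0.012), under quantile normalization (-1.01), without R1 (-1.43) and on leaving out any of 4 single ahES arrays. It did not pass without CS1-1, as ahES cells averaged 9.41 and R1 9.93, against 10.84 in CS1-1. Its other 2 probe sets above background gave -1.10 and -1.08. Eno3, the muscle enolase, had the same arrangement (7.03 ± 0.38 in ahES cells, 7.93 ± 0.11 in diploid ES cells) and a difference of -0.89 ± 0.27 (adjusted p = 0.035).

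**Figure D3:**
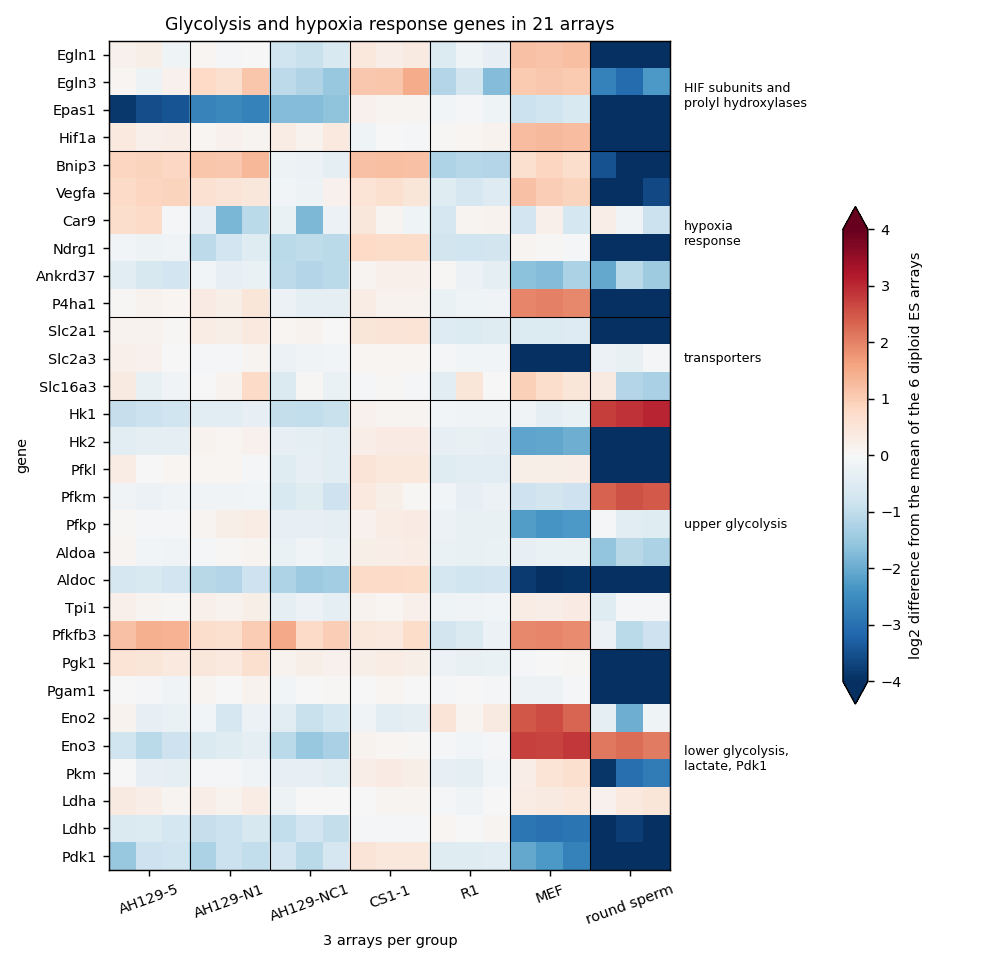
Level of the 30 genes in the 21 arrays, drawn as the log2 difference from the gene's mean over the 6 diploid ES arrays, with colours limited at -4 and 4. Rows are ordered by role and each group has 3 columns. Epas1 is the blue row across the ahES lines, and most rows turn dark blue in round sperm, where 8 of the 30 genes were near background.

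Across the 30 genes, 0 were higher and 2 (Epas1 and Aldoc) were lower in ahES cells than in diploid ES cells, against 3.0% higher and 1.35% lower of the 12891 genes tested. Of the 30 differences, 9 were above and 21 below 0. The median difference was -0.11 for the members and -0.03 for all genes tested. Of the 11 fibroblast markers, 10 had a positive difference and 2 passed as higher in ahES than in diploid ES cells (median 1.28). Against CS1-1 alone 10 of them passed as higher (median 2.55), and against R1 none did (median -0.35). Their part in these results was not tested.

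The choice of diploid line changed which members passed. Against CS1-1, 0 members were higher and 5 of 30 were lower in ahES cells (all genes: 8.12% higher, 5.50% lower). These were Epas1 (-2.78 ± 0.07), Aldoc (-1.78 ± 0.07), Pdk1 (-1.43 ± 0.13), Ndrg1 (-1.41 ± 0.08) and Egln3 (-1.34 ± 0.17). Aldoc was under 2-fold with its probe sets averaged (-0.93). The median difference of the members was -0.51, against -0.03 for all genes. Against R1, 3 of 29 members were higher and 1 was lower (all genes: 4.86% higher, 2.94% lower). Bnip3 rose by 1.77 ± 0.05, Pfkfb3 by 1.58 ± 0.15 and Egln3 by 1.08 ± 0.17, and Epas1 fell by 2.53 ± 0.07 (-2.53). The member median was then 0.11, against -0.04 for all genes. Egln3 was under 2-fold without R1 replicate 3 (0.83), and with probe sets averaged Egln3 (0.54) and Pfkfb3 (0.76) were too. Both comparisons use the same 9 ahES arrays.

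The diploid lines also differed from each other. In CS1-1, 7 of 30 members were higher than in R1 and 0 were lower (all genes: 4.17% higher, 5.69% lower). Egln3 (5.35-fold), Bnip3 (5.10-fold), Ndrg1 (2.86-fold), Aldoc (2.84-fold), Vegfa (2.15-fold), Slc2a1 (2.05-fold) and Pfkfb3 (2.03-fold) passed, with adjusted p from 2.22e-16 for Bnip3 to 0.000129 for Pfkfb3. Of the 30 members, 26 had a positive difference, all 9 of upper glycolysis among them, and the member median was 0.49 against 0.02 for all genes. The Pfkfb3 call was lost on leaving out CS1-1 replicate 3 (0.91), R1 replicate 1 (0.90) or R1 replicate 2 (0.99), and with probe sets averaged Pfkfb3 (0.54) and Vegfa (0.99) were under 2-fold.

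Fibroblast markers moved opposite to these genes. Their summed signal was 2810 to 3550 in CS1-1 and 27000 to 27800 in R1, with 20100 to 28300 in the ahES lines and 148000 to 152000 in MEF. Of the 11 fibroblast markers on the array, 10 were lower in CS1-1 than in R1 and 1 was near background in CS1-1. Bnip3 and Egln3 averaged 12.19 ± 0.11 and 9.45 ± 0.03 in MEF, above R1 (10.28 and 7.19). Slc2a1 averaged 12.42 ± 0.02 in MEF, level with R1 (12.44). Aldoc averaged 6.67 ± 0.32 in MEF, below every ES line. The part of fibroblast RNA in the differences between ES lines was not tested.

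**Figure D4:**
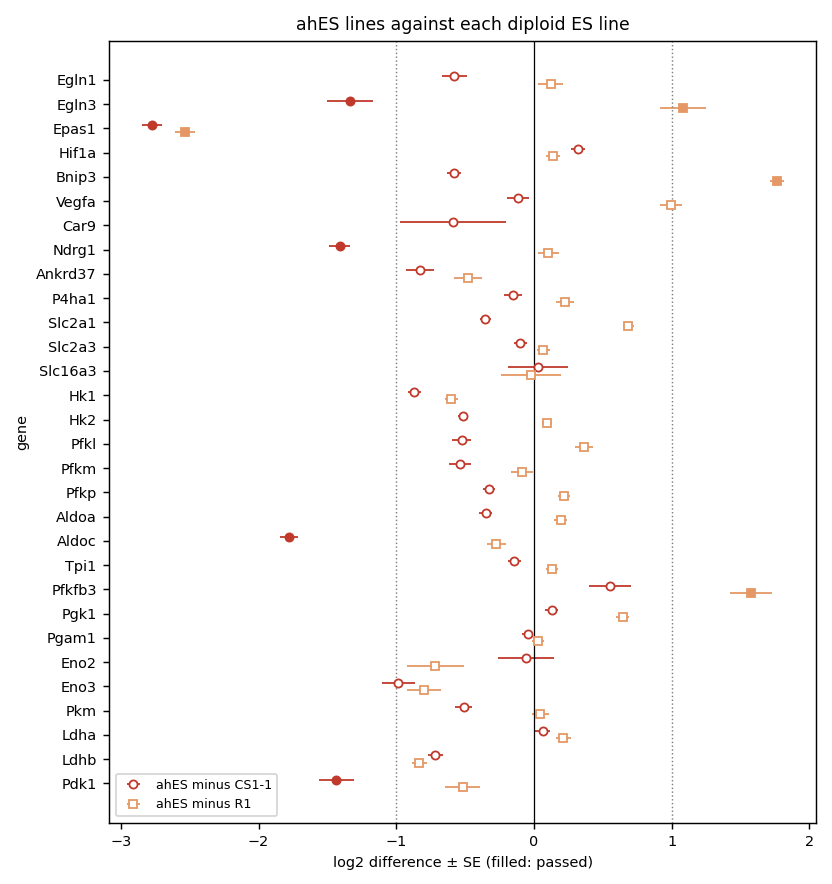
Log2 difference ± SE of ahES cells minus CS1-1 (circles) and minus R1 (squares) for the members tested. Filled symbols passed and dotted lines mark 2-fold. Epas1 lies near -2.5 to -2.8 in both, while Bnip3 and Egln3 lie below 0 against CS1-1 and above 1 against R1.

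Among the ahES lines, AH129-NC1 had the lowest mean of the 5 ES lines for 16 of 30 members, and CS1-1 the highest for 17. How often each line ranked lowest or highest over all genes was not counted. Between AH129-5 and AH129-N1, 0 of 29 members passed in either direction (all genes: 3.85% higher, 1.46% lower), although Epas1 came close at -0.98 ± 0.09 (1.97-fold, adjusted p = 4.38e-08). In AH129-5 against AH129-NC1, Egln3 (1.26 ± 0.21) and Bnip3 (1.12 ± 0.06) were higher and Epas1 (-1.93 ± 0.09) was lower (all genes: 3.22% higher, 2.15% lower). In AH129-N1 against AH129-NC1, Egln3 (2.10 ± 0.21) and Bnip3 (1.43 ± 0.06) were higher and no member was lower (all genes: 0.977% higher, 2.14% lower). Epas1 at -0.95 ± 0.09 did not reach 2-fold there. Epas1 thus ran opposite to Egln3 and Bnip3 between AH129-5 and AH129-NC1.

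Centring the arrays on their medians moved all differences of AH129-5 by about -0.15. Of all genes that passed, 54.2% were then higher in AH129-5 than in AH129-N1, against 72.6% as scaled by the authors. For AH129-5 against AH129-NC1 the share was 39.4% when centred and 46.7% after quantile normalization, against 60% as scaled. Centring left Bnip3 at 0.97 in AH129-5 against AH129-NC1, under 2-fold, and averaging probe sets left Egln3 there at 0.70.

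Compared with MEF, ahES cells had 6 of 29 members higher and 7 lower, shares close to those of all genes (21.1% higher, 21% lower). Slc2a3 read 14.54 to 14.99 in ahES arrays, with a median of 14.73, against 8.54, 8.53 and 8.71 in MEF, or 71.9-fold higher (6.17 ± 0.06, adjusted p = 1.36e-25). No other member differed as much. The SEs and p-values against MEF leave out the spread between the ahES lines. Aldoc (8.18-fold), Pfkp, the platelet-type phosphofructokinase (4.72-fold), Ldhb (4.45-fold), Hk2 (3.58-fold) and Pdk1 (2.6-fold) were also higher in ahES cells. For Pdk1 another probe set above background gave -0.67, and with probe sets averaged the difference was 0.41, under 2-fold. Hk2 read 12.81 to 13.42 in ahES arrays, against 11.13, 11.15 and 11.27 in MEF. Aldoc read 9.29 to 10.12 in ahES arrays, against 6.89, 6.30 and 6.82 in MEF. Pfkp read 12.38 to 13.05 in ahES arrays, against 10.52, 10.41 and 10.47 in MEF. For none of these genes did an ahES array reach down to a MEF array. Ldhb (10.24, 10.15 and 10.19) and Pdk1 (8.33, 8.09 and 7.67) were also below every ahES array in MEF.

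The members that were lower in ahES cells than in MEF were the muscle enolase Eno3 (12.5-fold), the neuronal enolase Eno2 (7.24-fold), P4ha1 (3.83-fold), and all 4 HIF subunits and hydroxylases, namely Epas1 (3.72-fold), Egln1 (2.65-fold), Egln3 (2.28-fold) and Hif1a (2.04-fold). Eno3 read 6.42 to 7.54 in ahES arrays, against 10.66, 10.62 and 10.75 in MEF. Eno2 read 5.55 to 6.59 in ahES arrays, against 8.91, 9.04 and 8.75 in MEF. P4ha1 read 9.29 to 10.18 in ahES arrays, against 11.66, 11.72 and 11.62 in MEF. None of these ranges overlapped, whereas those of Egln3 did. With probe sets averaged, Egln3 (-0.85) and Hif1a (-0.88) did not reach 2-fold. Ldha, Pgam1, Pgk1, Aldoa and Tpi1, at 13.40 or above in MEF on average, stayed within 2-fold.

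Diploid ES cells against MEF gave 7 members higher and 8 lower of 30 (all genes: 22.6% higher, 22.1% lower). Both ES comparisons use the same 3 MEF arrays. Slc2a3 (72.6-fold), Aldoc (16.6-fold), Ldhb (7.62-fold), Pdk1 (5.12-fold), Pfkp (4.89-fold), Hk2 (4.14-fold) and Ankrd37 (2.92-fold) were higher in diploid ES cells. Eno3 (6.73-fold), Eno2 (5.54-fold), P4ha1 (3.93-fold), Pfkfb3 (3.79-fold), Hif1a (2.39-fold), Egln1 (2.26-fold), Egln3 (2.08-fold) and Vegfa (2.03-fold) were lower. Egln3 averaged 9.61 in CS1-1 and 7.19 in R1, against 9.45 in MEF, so that only R1 lay below MEF. Vegfa averaged 9.44 in CS1-1 and 8.33 in R1, against 9.90 in MEF. Egln3 fell short of 2-fold without R1 replicate 3 (-0.93), as did Vegfa without R1 replicate 2 (-0.99) or MEF replicate 1 (-0.94). With probe sets averaged, Hif1a (-0.85), Pfkfb3 (-0.42), Egln3 (-0.45) and Vegfa (-0.93) did not pass. For Epas1 the signs were opposite, with -1.89 ± 0.08 in ahES cells and 0.76 ± 0.09 in diploid ES cells relative to MEF, the second under 2-fold. MEF differ from the ES lines in strain and medium too, and these cannot be told apart from cell type.

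Most members were far dimmer in round sperm than in ahES cells. Of 29 members tested, 19 were higher and 3 lower in ahES cells than in round sperm (all genes: 40.8% higher, 32.2% lower). The member median was 3.15, or 3.02 with the 7 near-background members at their bounds, and that of all genes 0.33. The all-gene median was 0.21 after median-centring and 0.10 after quantile normalization. Slc2a1 read 12.98 to 13.36 in ahES arrays, against 4.69, 4.89 and 4.34 in round sperm, at least 197-fold higher. Hk2 read 12.81 to 13.42 in ahES arrays, against 5.18, 5.92 and 6.94 in round sperm, or 129-fold higher. The spread of Hk2 in round sperm was wide but lay wholly below the ahES arrays. Pgk1 read 14.39 to 14.88 in ahES arrays, against 8.23, 8.97 and 8.92 in round sperm (60.2-fold higher). Pgam1, the mutase of lower glycolysis, read 13.40 to 13.68 in ahES arrays, against 7.71, 8.02 and 7.22 in round sperm (59.3-fold higher). Neither gene overlapped between the groups. Aldoc (8.85-fold), Pkm, the last enzyme of the chain (7.96-fold), and Aldoa (2.36-fold) were higher in ahES cells too.

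The HIF system was also low in round sperm. Hif1a was 29.5-fold higher in ahES cells, Egln1 at least 14.9-fold, Epas1 at least 8.11-fold and Egln3 5.90-fold, so that all 4 members of that role were higher. Egln1 read 8.73 to 9.87 in ahES arrays, against 4.78, 3.85 and 4.98 in round sperm. The dimmer Epas1 probe set was near background in round sperm, AH129-5 and AH129-N1, and gives no direction here. Of the response genes, P4ha1 (at least 18.8-fold), Vegfa (at least 14.1-fold), Bnip3 (21.5-fold) and Ndrg1 (14.4-fold) were higher. Bnip3 read 11.10 to 12.79 in ahES arrays, against 7.96, 7.43 and 7.47 in round sperm, and P4ha1 read 9.29 to 10.18, against 3.87, 4.97 and 5.62. Pdk1 read 8.87 to 9.72 in ahES arrays, against 4.54, 5.25 and 4.20 in round sperm (at least 15-fold higher). Every one of these ahES arrays lay above the round sperm arrays. Ldhb read 12.15 to 12.56 in ahES arrays, against 9.09, 9.35 and 8.83 in round sperm (9.58-fold higher), but its 4 probe sets ranged from 3.26 to 6.23 in this difference.

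Some members were as bright or brighter in round sperm. Hk1 read 9.84 to 10.50 in ahES arrays, against 13.58, 13.72 and 13.87 in round sperm, or 12.4-fold lower. Eno3 (8.20-fold) and the muscle phosphofructokinase Pfkm (6.84-fold) were lower in ahES cells as well. Ldha read 13.83 to 14.40 in ahES arrays and 14.21, 14.44 and 14.53 in round sperm. Tpi1 and Eno2 also stayed within 2-fold. So did Slc2a3 (0.18), Pfkp (0.26), Slc16a3 (0.71) and Ankrd37 (0.86) as read here, but not in every reading. Another Slc2a3 probe set gave 1.39 and another Pfkp probe set 2.03. Slc16a3 passed without round sperm replicate 1 (1.24) and Ankrd37 without round sperm replicate 2 (1.08). Probe sets also disagreed for Pfkfb3: the set used gave a log2 difference of 1.79, while the other averaged 10.09 in round sperm and was near background in all ahES lines. They disagreed too for Pfkl, where the set used was at least 17.8-fold higher in ahES cells and the others differed by 0.89 and 0.84 on the log2 scale. Of 5 Aldoa probe sets, 1 gave -0.33, and their average of 0.86 was under 2-fold.

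**Figure D5:**
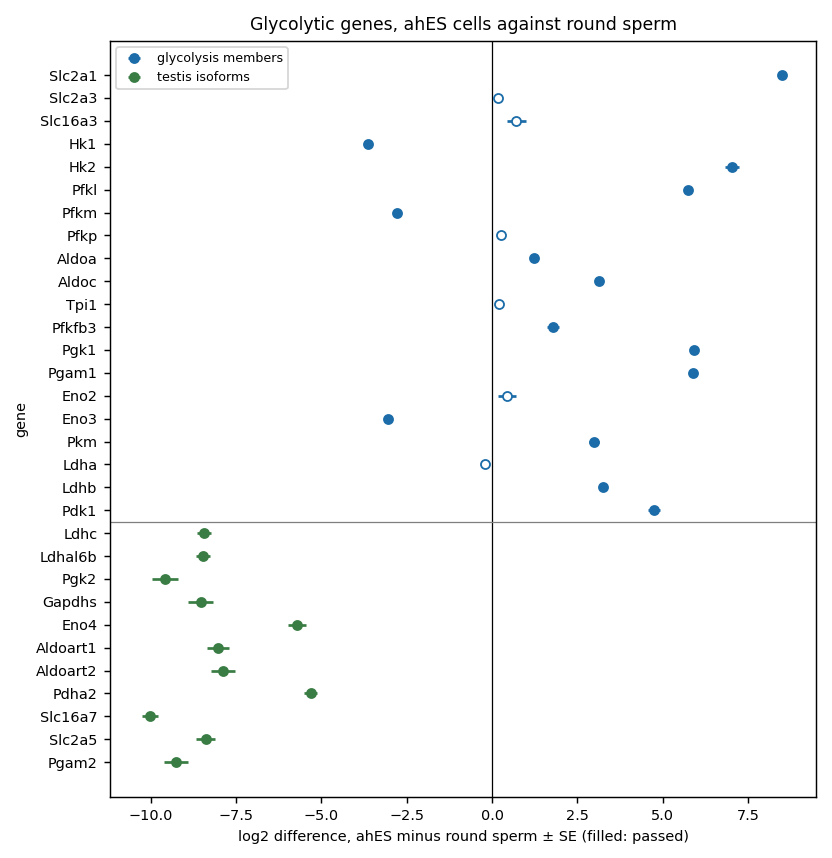
Log2 difference ± SE, ahES cells minus round sperm, for the transporter and glycolysis members (blue) and for genes listed as testis isoforms (green). Filled points passed. Where a group was near background the plotted difference rests on values at background. All 11 genes listed as testis isoforms lie below -5. The members run from -3.63 for Hk1 up to Slc2a1, which was near background in round sperm and at least 197-fold higher in ahES cells.

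The genes listed as testis isoforms of the same pathway ran the opposite way. As they were listed as testis forms, a high level in round sperm was to be foreseen. All 11 of the listed isoforms were lower in ahES cells than in round sperm, with a median of -8.43, or -8.20 with 6 of them at their bounds (all genes: 32.2% lower). Pgk2, the testis form of Pgk1, averaged 4.56 ± 0.72 in ahES cells and 14.14 ± 0.12 in round sperm, at least 399-fold lower in ahES cells. Ldhc, the sperm lactate dehydrogenase, was 345-fold lower in ahES cells, and Ldhal6b, a related gene, 351-fold. Slc16a7, a monocarboxylate transporter, was at least 293-fold lower and Slc2a5, the fructose transporter, at least 294-fold. Slc16a7 also passed as lower in ahES cells than in MEF, so that not every listed gene was confined to testis. Pdha1, the X-linked alpha subunit of pyruvate dehydrogenase, was 157-fold higher in ahES cells (13.60 ± 0.11 and 6.31 ± 0.38), and its testis form Pdha2 was 39.7-fold lower.

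Round sperm also differed in 1 control of RNA quality and in the signal of spermatid and spermatocyte markers. The Gapdh 3′ minus 5′ control difference was 0.37 to 0.69 in round sperm, against -0.35 to -0.09 on all other arrays. The same difference for Actb was 0.50 to 1.00 in round sperm and overlapped with the ES arrays at 0.45 to 0.63. The 10 round spermatid markers summed to 151000 to 222000 in round sperm, against 255 to 399 in all other groups. The 8 spermatocyte markers summed to 19300 to 20300 in round sperm, against 62.5 to 1940 in all other groups. The part of RNA quality or of spermatocyte RNA in these differences was not tested.

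Pdha2 was the clearest difference between ahES and diploid ES cells in the related lists. It read 7.26 to 8.22 in ahES arrays, 3.63, 3.72 and 4.26 in CS1-1, and 5.35, 5.28 and 4.99 in R1, near background in both diploid lines, at least 5.00-fold higher (adjusted p = 1.15e-05). Fbp2, the muscle enzyme that reverses the phosphofructokinase step, was 3.74-fold higher (adjusted p = 0.0246). The Fbp2 ranges overlapped, and it passed against CS1-1 (7.26-fold) but not against R1 (1.92-fold). Siah2, a ubiquitin ligase that destroys HIF hydroxylases, was 2.21-fold higher (adjusted p = 0.00662). Pdk4, the fasting-induced sister of Pdk1, was 2.48-fold lower (adjusted p = 0.036). Of 34 further HIF target genes tested, Stc2, a secreted glycoprotein, was higher (2.57-fold) and Selenbp1, a selenium-binding protein, was lower (2.43-fold), against 3.0% higher and 1.35% lower of all genes. Against R1, Stc2 passed (4.62-fold) and Selenbp1 did not (1.76-fold). Against CS1-1, the 3 HIF targets that passed as higher were Ak4, Lox and Tek, and not Stc2. The list medians stayed between -0.46 and 0.16.

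Between the diploid lines, 5 of 34 HIF targets were higher and 3 lower in CS1-1 than in R1 (all genes: 4.17% and 5.69%). Bhlhe40, a circadian repressor (3.49-fold), and Ero1a, an oxidase of the endoplasmic reticulum (2.21-fold), were higher in CS1-1. Lox, the collagen cross-linking enzyme (10.5-fold), and Ak4, a mitochondrial adenylate kinase (3.28-fold), were lower. Lox was bright in MEF (14.65), and Ak4 was lower in MEF (10.02) than in either diploid line. In the pentose phosphate and glycogen list, Pgm1 (2.88-fold) and Pygb, a glycogen phosphorylase (2.22-fold), were higher in CS1-1 and no gene was lower. Against CS1-1, ahES cells had 3 of 34 HIF targets higher and 7 lower (all genes: 8.12% and 5.50%). Against R1 they had 1 of 31 higher and 0 lower (all genes: 4.86% and 2.94%).

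Against MEF, ahES cells had 5 of 32 HIF targets higher and 10 lower (all genes: 21.1% and 21%). Those with the smallest adjusted p included Ak4 (10.0-fold higher), Kdm3a, a histone demethylase (5.55-fold higher), and P4ha2, a second collagen prolyl hydroxylase (8.70-fold lower). Tigar, a phosphatase that opposes glycolysis, was 5.24-fold higher in ahES cells. Against round sperm, 20 of 31 HIF targets were higher in ahES cells and 3 were lower (all genes: 40.8% and 32.2%). Of 15 pentose phosphate and glycogen genes, 10 were higher and 1 lower, with the pentose enzymes Tkt (81.1-fold), Taldo1 (57.9-fold) and Pgd (47.8-fold) having the smallest adjusted p.

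All 21 arrays correlated best with their own group. Pluripotency markers summed to 91600 to 112000 in ES lines and to 272 to 363 in MEF, and none of the 10 was near background in an ES line.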

How the data were processed

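Gene expression was read from 21 arrays (45101 probe sets, 64 of them controls). The deposited values are on a log2 scale and were made by the authors with MAS5, per the submitters' processing notes; the version is not given in the sources used here. The base was read from the values: on the linear scale, every array had a 2% trimmed mean of 500. Values ran from a floor of 0 to 15.7. The number of arrays, 3 per group, limits the precision.

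The platform annotation gave 1 symbol to 34945 probe sets, several to 932 and none to 9160. The 30 members had 68 probe sets, and 19 members had more than 1. An offset of 9.70, the 20th percentile of signal on a typical array, was added before taking log2. Genes entered a test if at least 1 of the groups compared had all its arrays above their 40th percentile. The 2-sided tests used limma 3.58.1 (statmod 1.5.0, R 4.3.3) with trend and robust moderation and Benjamini-Hochberg adjustment over all genes tested. For ahES against diploid ES cells, line was a random block (correlation 0.687) over the 15 ES arrays. Lines were compared over the same 15 arrays, and MEF and round sperm comparisons were fitted over all 21. These fits had no block for line. Bounds replace a near-background mean by the 40th percentile. The workflow was tested on simulated data.

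The members, related lists and tests were chosen with earlier results of these data known. Array values are given for up to 8 passing members per comparison with the largest differences and for 9 key members, and up to 4 genes are named from a related list by adjusted p. Replicate numbers do not pair arrays: deviations of same-numbered arrays correlated at -0.05 to 0.04 (63 pairs, 0 over 0.1). Alternatives covered the offset, filter, scaling, probe set rule, moderation, blocks and leaving out arrays or lines.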

Additional observations from a re-analysis of the deposited data

Results flagged for a closer look

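For 7 members the difference of ahES cells from CS1-1 was not the difference from R1, as tested by CS1-1 minus R1 itself. That contrast was 2.42 for Egln3, 2.35 for Bnip3, 1.52 for Ndrg1, 1.51 for Aldoc, 1.11 for Vegfa, 1.04 for Slc2a1 and 1.02 for Pfkfb3 on the log2 scale, with every CS1-1 array above every R1 array in each case. As these members were picked by that contrast, such separation was to be foreseen. Its share over all genes was not counted. For Bnip3, Egln3, Slc2a1 and Vegfa the ahES difference was negative against CS1-1 (-0.58, -1.34, -0.35 and -0.11) and positive against R1 (1.77, 1.08, 0.68 and 0.99). Fibroblast markers moved opposite to these genes between the diploid lines, and their part was not tested. No array was flagged in the 60 checks run over the 9 ahES and 6 diploid ES arrays of each member. These checks pooled arrays of several lines, and for members such as Bnip3 the gap between lines widened the spread. The chance rate of about 1 in 20 holds for arrays without such grouping. An array that was off within its line could thus be missed, and the absence of flags decides nothing.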

How the results depend on the processing

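For 73 member results that passed, 1506 values came from alternative processing or from leaving out an array or a line. They kept the call in 1468, lost it in 37 and reversed it in 1. The reversal was Pfkfb3 in ahES cells against round sperm, at -1.77 when probe sets were averaged. Counts of all genes that passed changed most with the offset: at 50 they were 1017 for ahES cells against CS1-1 (1736 as reported), 538 against R1 (989), 702 for CS1-1 against R1 (1194), 313 for AH129-5 against AH129-N1 (645), 309 against AH129-NC1 (655) and 132 for AH129-N1 against AH129-NC1 (376). A filter at the 60th percentile gave 420 for AH129-5 against AH129-N1 and 219 for AH129-N1 against AH129-NC1. For ahES against diploid ES cells (561), 1 mean per line gave 284, of which 269 were shared, and leaving out line R1 gave 1098. Of the members there (2), 1 passed at an offset of 50, 4 under quantile normalization, 0 with 1 mean per line, 1 without line AH129-NC1 and 4 without line R1. For AH129-5 against AH129-N1 (0 members), 1 passed at an offset of 1, with no filter, with median-centred arrays, under quantile normalization and with probe sets averaged.

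Leaving out each array in turn gave 537 to 573 genes and 1 to 3 members for ahES against diploid ES cells, 1701 to 1772 and 5 to 6 against CS1-1, 982 to 1021 and 4 to 5 against R1, 1179 to 1224 and 6 to 7 for CS1-1 against R1, 641 to 684 and 0 to 2 for AH129-5 against AH129-N1, 627 to 665 and 3 to 4 against AH129-NC1, 357 to 418 and 2 to 2 for AH129-N1 against AH129-NC1, 5569 to 5606 and 13 to 14 for ahES cells against MEF, 5803 to 5852 and 14 to 15 for diploid ES cells against MEF, and 10766 to 10968 and 22 to 23 for ahES cells against round sperm. Aldoc in ahES against diploid ES cells lost its call on leaving out CS1-1 replicate 2 (-0.99).

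Adding the replicate number as a block gave 524 genes for ahES against diploid ES cells, and the same 2 members, with no member call changed in any comparison. It moved no count of calls by over 1.5 times. Signal over background limits the 8 members near background in round sperm, Car9 among them, where a difference from round sperm is a bound. With 3 ahES and 2 diploid lines, differences by kind rest on 5 lines. The causes of the changed counts were not tested.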

Other observations

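Related genes also separated AH129-5 from the other ahES lines. Fbp2, the muscle fructose bisphosphatase, read 10.42, 10.13 and 10.11 in AH129-5, against 8.28, 8.41 and 8.20 in AH129-N1 and 8.67, 8.08 and 8.62 in AH129-NC1, or 3.80-fold and 3.40-fold higher. Stc2, a secreted glycoprotein, was 2.04-fold higher in AH129-5 than in AH129-N1 and 2.83-fold higher than in AH129-NC1, and Tek, an endothelial receptor kinase, was 2.54-fold and 2.66-fold lower. Ldhal6b, a testis lactate dehydrogenase gene, was near background in AH129-5 and at least 2.25-fold lower than in AH129-N1 and at least 3.81-fold lower than in AH129-NC1. Plod2, a lysyl hydroxylase of collagen, was 2.20-fold lower in AH129-N1 and 2.03-fold lower in AH129-5 than in AH129-NC1.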
